A study of Mus musculus with 12 samples.

Results

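The genes described here are 9 genes of dopamine and acetylcholine signalling in the mouse retina. They are the dopamine receptor genes *Drd4*, *Drd1* and *Drd2*, the dopamine synthesis genes *Th* and *Ddc*, the vesicle transporter genes *Slc18a2* and *Slc18a3*, and the acetylcholine genes *Chat* and *Slc5a7*. Every probe set annotated with 1 gene symbol among the 9 was taken, which gave 12 probe sets of the 34958 with 1 symbol, or 9 of 18194 genes. Retinal RNA was measured on 12 Affymetrix Mouse Genome 430 2.0 arrays, 3 in each of 4 groups. All animals carried *otx2* flox/flox. Control retinas were Crx-Cre- and *Otx2* CKO retinas were Crx-Cre+, and both genotypes were taken at postnatal day (P) 1 and P12. *Crx*-Cre removes the transcription factor gene *Otx2* in developing photoreceptors, and the whole retina was measured, so cells that descend from the targeted precursors, of whatever type, cannot be told apart from the other cells of the retina. The labels do not say whether an array is 1 animal or a pool, so p-values measure the spread between these samples.

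Dopamine is the modulator by which the retina adapts to light. It is made and released by a sparse class of amacrine cells, in which TH converts tyrosine to L-DOPA, DDC converts L-DOPA to dopamine, and the transporter encoded by *Slc18a2* loads it into vesicles. Photoreceptors carry the DRD4 receptor, which lowers cyclic AMP, while DRD1 sits mainly on bipolar, horizontal, amacrine and ganglion cells and DRD2 serves as the autoreceptor of the dopaminergic cells. Acetylcholine is made in the retina by starburst amacrine cells, where the *Slc5a7* transporter takes up choline, CHAT makes acetylcholine and the *Slc18a3* transporter fills the vesicles.

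Promoters of 3 of the genes are shown. *Drd4* is the receptor gene of photoreceptors, and *Th* and *Slc18a2* are amacrine dopamine genes that differ from it in the *Otx2* CKO retina. *Th* and *Slc18a2* are also the only genes of the 9 whose promoters held the motif marked below. *Ddc*, the other dopamine synthesis gene, did not hold it and is not shown. Each promoter shown is the RefSeq promoter in build GRCm38.p6, 5′ to 3′ on the gene's strand. It is 300 bases long, with most of them before the start site. The places are chr7:141291768-141292067 on the plus strand for *Drd4*, chr7:142899946-142900245 on the minus strand for *Th*, and chr19:59260628-59260927 on the plus strand for *Slc18a2*. Capitals mark TGACGTCA, the cyclic AMP response element.
Drd4: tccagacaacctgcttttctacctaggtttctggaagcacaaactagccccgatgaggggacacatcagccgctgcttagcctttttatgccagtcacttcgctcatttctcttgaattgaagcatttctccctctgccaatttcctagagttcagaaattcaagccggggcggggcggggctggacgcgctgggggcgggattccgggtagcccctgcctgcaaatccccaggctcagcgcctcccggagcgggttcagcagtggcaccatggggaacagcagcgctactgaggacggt
Th: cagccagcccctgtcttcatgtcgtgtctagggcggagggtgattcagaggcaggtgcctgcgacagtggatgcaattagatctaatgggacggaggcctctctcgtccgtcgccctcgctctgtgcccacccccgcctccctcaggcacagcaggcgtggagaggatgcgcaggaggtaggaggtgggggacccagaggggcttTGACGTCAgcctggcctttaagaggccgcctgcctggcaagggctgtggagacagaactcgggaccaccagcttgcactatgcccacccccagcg
Slc18a2: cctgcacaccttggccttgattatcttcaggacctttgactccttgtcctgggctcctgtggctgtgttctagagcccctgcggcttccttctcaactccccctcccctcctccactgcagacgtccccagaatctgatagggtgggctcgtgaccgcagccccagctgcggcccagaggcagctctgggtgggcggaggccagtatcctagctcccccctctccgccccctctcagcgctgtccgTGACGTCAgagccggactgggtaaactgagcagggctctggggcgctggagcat

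TGACGTCA reads the same on both strands. It began at -45 relative to the start site in *Th* and at -4 in *Slc18a2*, and was in 2 of the 11 promoters of the 9 genes, against 1.79% of the 32851 promoters in the table. The OTX and CRX core TAATCC and its variant TAATCT, searched on both strands, were in 0 of the 11 promoters. They were in 7.06% and 8.19% of all promoters. The shorter core TAATC was not searched, and its reverse complement GATTA occurs in the *Slc18a2* promoter shown. Sequence outside the 300 bases was not searched. AAAGGTCA, an orphan nuclear receptor element, was in 1 of the 11, on the minus strand of 1 *Ddc* promoter, and in 1.51% of all. The *Drd4* promoter held none of the 4 motifs in this window.

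Signals are given on the linear scale as deposited, in the order of replicates 1, 2 and 3. Changes are log2 of the signal plus 16, *Otx2* CKO minus control, tested with limma and adjusted by Benjamini-Hochberg over all probe sets tested. Testing needed a mean signal of 50 in at least 1 of the groups compared. The arrays differed in brightness. The 2% trimmed mean signal was 21.95 to 30.3 at P1, 96.63 to 111.5 in P12 controls and 108.4 to 172 in P12 *Otx2* CKO, where replicate 1 was the brightest. The median change of all 21390 probe sets tested at P12 was 0.39 as deposited and 0.08 after quantile normalization, so the quantile value stands beside the main one. *Otx2* itself fell from a mean of 969.4 to 173.2 at P12 (log2 change -2.43, adjusted p = 6.958e-05) and was 339 in control and 135.2 in *Otx2* CKO at P1 (adjusted p = 0.2069).

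At P12, *Drd4* fell in the *Otx2* CKO retina, *Th* rose, and the genes of acetylcholine signalling did not pass the test or were too dim for it. Of the 12 probe sets, 8 of 6 genes were tested at P12. Both *Drd4* probe sets were called lower and that of *Th* higher, where 4.54% of all tested probe sets were called lower and 14.1% higher. After quantile normalization 3 were called lower, with *Drd2* added, and 1 higher, against 7.09% and 6.79% of all. The 4 probe sets of *Ddc*, *Chat* and *Slc5a7* stayed below the signal limit.

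*Drd4* encodes the receptor by which dopamine acts on rods and cones. Its probe set 1422830_s_at gave 1213, 2391.7 and 2721.2 in the P12 control arrays and 60.3, 106.9 and 63.8 in the P12 *Otx2* CKO arrays. Every control array was above every *Otx2* CKO array. The mean went from 2109 ± 792.9 to 77 ± 25.95 (SD, n = 3), a log2 change of -4.47 (SE 0.2985, limma adjusted p = 1.031e-06). The other probe set, 1422829_at, gave 352.9, 620.4 and 689.4 in control and 55.6, 5.8 and 27.2 in *Otx2* CKO. It too had no overlap, and its mean went from 554.2 ± 177.7 to 29.53 ± 24.98 (SD, n = 3), a log2 change of -3.75 (SE 0.3727, limma adjusted p = 2.51e-05). The *Otx2* CKO values of this probe set lay under the medians of their own arrays (56, 25.4 and 32.4), so the size of its change depends on the offset and ran from -4.59 to -2.93 over the alternatives. The probe sets stood 40th and 80th from the lowest of the 21390 changes. Quantile normalization gave -4.64 and -3.73. In same-numbered arrays the change of 1422830_s_at was -4.01, -4.29 and -5.10. In whole retina, fewer cells of a type and less RNA per cell cannot be told apart.

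*Drd1* and *Drd2*, the receptor genes of the inner retina, did not move as *Drd4* did. *Drd1* probe set 1455629_at gave 128.4, 215.4 and 159 in P12 control and 321.2, 246.6 and 291.3 in *Otx2* CKO. The groups were apart, with *Otx2* CKO higher, but the change of 0.74 (SE 0.2479) missed the threshold (limma adjusted p = 0.05553). With the replicate number as a block it passed (adjusted p = 0.04396), and after quantile normalization it was 0.41 (adjusted p = 0.3018). It was called in 6 of 30 alternatives, and not with the P12 arrays fitted alone (limma adjusted p = 0.2765). The other *Drd1* probe set, 1456051_at, gave 256, 283 and 372.3 in control and 480.1, 341.3 and 380.5 in *Otx2* CKO. These groups overlapped, and the change of 0.38 had a 95% interval of -0.14 to 0.91 (limma adjusted p = 0.2797).

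*Drd2* gave 145.8, 266.3 and 136 in P12 control and 125.8, 95.9 and 62.5 in *Otx2* CKO. Every *Otx2* CKO array was below every control array, if by a small gap. The mean was 182.7 ± 72.57 in control and 94.73 ± 31.67 in *Otx2* CKO (SD, n = 3), a log2 change of -0.83 (SE 0.2742) that missed the threshold (limma adjusted p = 0.05339). It passed with the replicate block (adjusted p = 0.03053) and after quantile normalization, where the change was -1.05 (SE 0.2476, limma adjusted p = 0.01287). The same-numbered arrays differed by -0.19, -1.33 and -0.95, so pair 1 differed least. Without P12 *Otx2* CKO replicate 1 it passed as deposited (change -1.02, adjusted p = 0.02467). That was the 1 call among the 12 fits that left out 1 array, and 11 of 30 alternatives called *Drd2* in all. With the P12 arrays fitted alone it was not called (limma adjusted p = 0.2767).

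*Th*, the rate-limiting enzyme gene of dopamine synthesis, rose. It gave 13.4, 18.6 and 15.3 in P12 control and 77.5, 52.2 and 47 in *Otx2* CKO. The lowest *Otx2* CKO array was above the highest control array. The mean was 15.77 ± 2.631 and 58.9 ± 16.32 (SD, n = 3), a log2 change of 1.22 (SE 0.2101, limma adjusted p = 0.001838). After quantile normalization the change was 0.84 (SE 0.2397, limma adjusted p = 0.03458). These are dim signals: the control values lay under the medians of their own arrays (36.9, 24.3 and 27.6), and *Th* was tested because the *Otx2* CKO mean reached the limit of 50. The size of the change depends on the offset and scaling and ran from 0.72 to 1.81 over the alternatives. Without *Otx2* CKO replicate 1 the mean was 49.6, under the limit, and without the limit the change was then 1.05 (limma adjusted p = 0.003098). With the P12 arrays fitted alone the call was lost (adjusted p = 0.1241).

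*Ddc*, the step after *Th*, stayed dim. Its probe set 1426215_at gave 7.1, 21.8 and 13 in P12 control and 15.4, 18.1 and 21 in *Otx2* CKO, which overlapped, and the 6 arrays of 1430591_at lay between 0.8 and 3.2. The changes were 0.22 and 0.08, untested. *Slc18a2*, the vesicle transporter of dopamine and other monoamines, gave 62.5, 18.3 and 69.4 in control and 90, 35.7 and 52.2 in *Otx2* CKO. The groups overlapped over most of their range, and the change of 0.23 had a 95% interval of -0.62 to 1.09 (limma adjusted p = 0.6897). An increase of the size seen for *Th* lay outside that interval, though a smaller one did not.

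Of the acetylcholine genes only *Slc18a3* was bright enough to be tested. It gave 80.8, 104.8 and 76.3 in P12 control and 107.3, 101.5 and 105 in *Otx2* CKO. The *Otx2* CKO arrays lay at or above the upper part of the control range. The change was 0.23 with a 95% interval of -0.18 to 0.64 (limma adjusted p = 0.3962), and -0.06 after quantile normalization. *Chat* gave 31.7, 23.1 and 15.6 in control and 59.7, 17.3 and 32 in *Otx2* CKO, which overlapped. Its change of 0.35 was not tested, and the fit with no signal limit gave a 95% interval of -0.24 to 0.94. *Slc5a7* gave 17.4, 12.4 and 4.3 in control and 4.7, 1.2 and 12.8 in *Otx2* CKO, a change of -0.30 with overlapping groups. *Slc18a3* lies within *Chat* in the gene table.

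**Figure D1:**
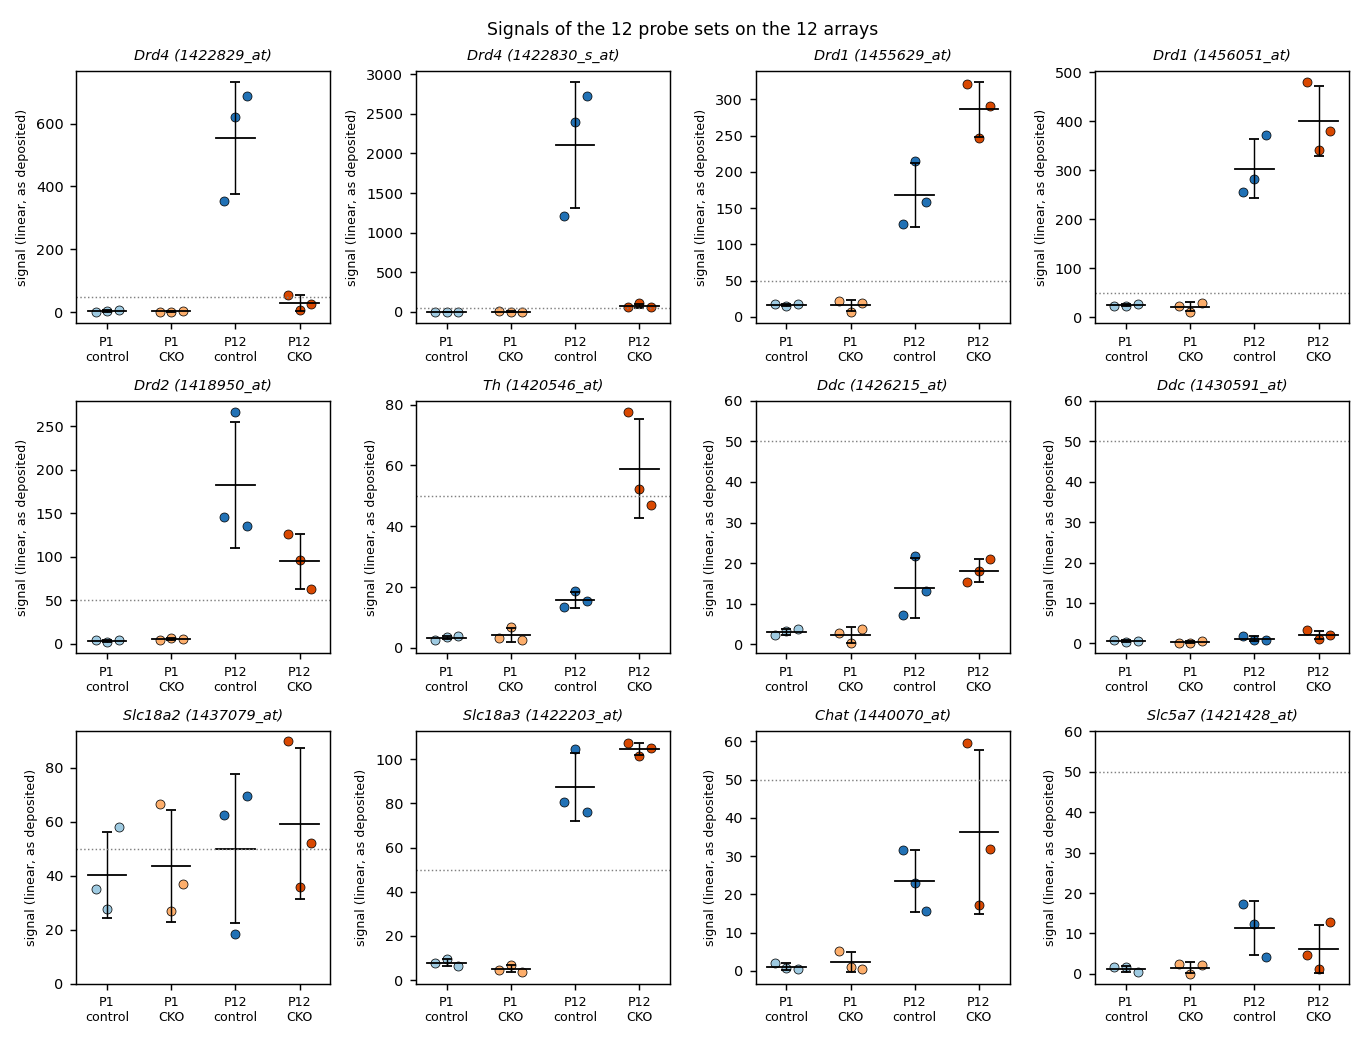
Deposited signal (linear axis, own scale in each panel) of the 12 probe sets on the 12 arrays; points are arrays in replicate order, horizontal lines are group means, bars are SD (n = 3), and the dotted line is the signal limit of 50. Both *Drd4* probe sets are high in P12 control arrays alone, *Th* passes the limit in P12 *Otx2* CKO, and *Slc18a3* and *Drd1* are high at P12 in both genotypes.

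**Figure D2:**
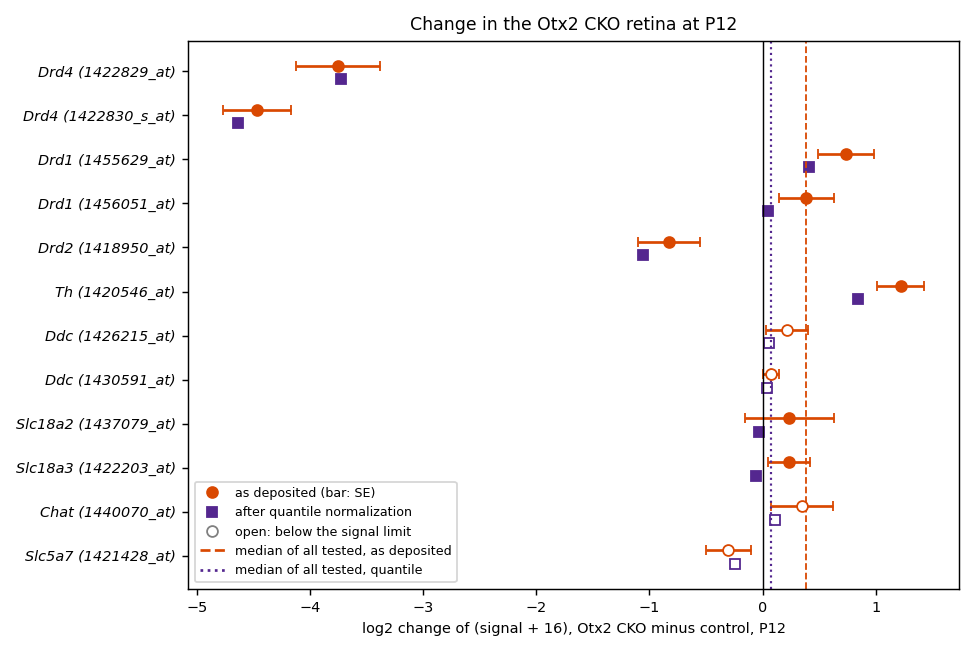
Log2 change of signal plus 16, *Otx2* CKO minus control at P12, for each probe set as deposited (circles, bars are SE) and after quantile normalization (squares); open symbols are below the signal limit, where the SE is from the fit with no limit, and vertical lines are the medians of all tested probe sets, 0.39 and 0.08. *Drd4* lies at -4.47 and -3.75, *Drd2* at -0.83 and *Th* at 1.22, and the rest lie between -0.30 and 0.74.

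The contrast between the photoreceptor receptor and the amacrine genes was then taken within each array. The offset of 16 keeps part of the brightness of the array in these differences, so the quantile value is given too. The log2 difference between *Drd4* (1422830_s_at) and each of the other 10 probe sets was computed, and the control arrays were above the *Otx2* CKO arrays for each. For the genes that were tested at P12, the change was -3.64 against *Drd2* (-3.58 after quantile normalization), -5.21 and -4.85 against *Drd1* (-5.05 and -4.69), -4.70 against *Slc18a3* (-4.58), -4.70 against *Slc18a2* (-4.61) and -5.69 against *Th* (-5.48). *Ddc*, *Chat* and *Slc5a7* were below the signal limit, so the difference against them mostly repeats the change of *Drd4* alone. The exact two-sided permutation test gave p = 0.1 for each (adjusted p = 0.1 over 10 comparisons), the smallest that 3 against 3 allows. All 10 share the *Drd4* values, so they are not 10 separate results. At P1 the groups overlapped in every one.

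**Figure D3:**
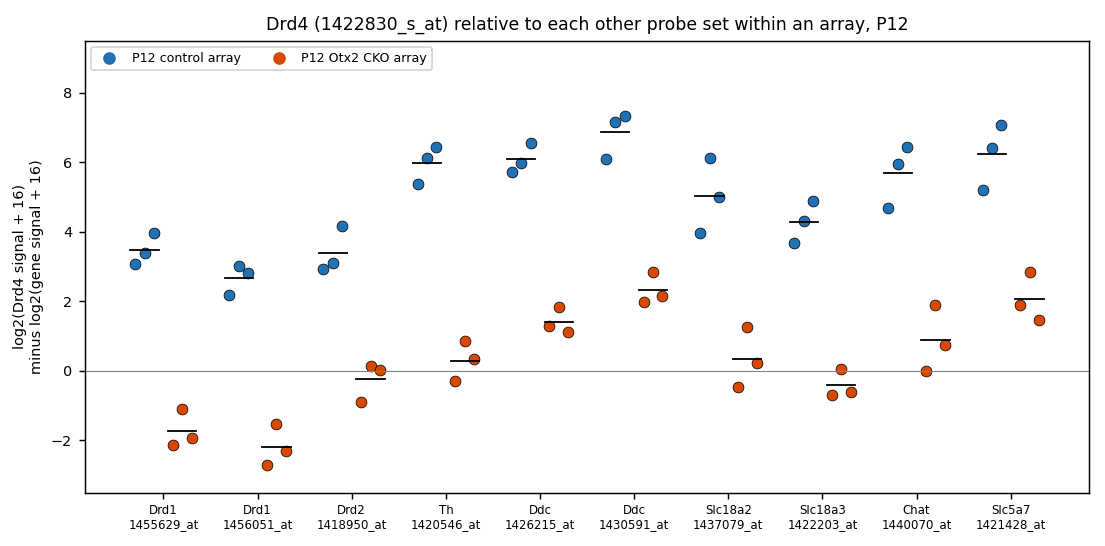
Log2 of *Drd4* (1422830_s_at) signal plus 16 minus log2 of each other probe set's signal plus 16 on the same array, at P12; points are arrays and lines are group means. The *Otx2* CKO arrays lie below the control arrays in all 10 columns, of which the *Ddc*, *Chat* and *Slc5a7* columns have a gene below the signal limit; the height of a column also depends on the probe set and is not compared between columns.

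At P1 none of the 12 probe sets reached the signal limit in either genotype, so 0 were tested, where 0.179% of the 8384 probe sets tested were called lower and 0 higher. With no limit, 0 of the 12 had an unadjusted limma p under 0.05. *Drd4* was at 0.1 to 0.5 in P1 control and 4.7, 0.2 and 0.3 in P1 *Otx2* CKO for 1422830_s_at, and at 2.1 to 7.1 over both genotypes for 1422829_at. These are low for arrays whose median signals were 5.1 to 7.9. *Th* was at 2.7 to 3.8 in control and 2.7 to 6.9 in *Otx2* CKO. Loss of *Drd4* could not have been seen at P1 in arrays where the control was this dim. *Slc18a2*, at 26.9 to 66.7, and *Drd1*, at 6.8 to 30 over its probe sets, lay above the medians of their own arrays. With no limit, their 95% intervals were -0.79 to 0.92 for *Slc18a2*, -0.59 to 0.49 for *Drd1* 1455629_at and -0.67 to 0.37 for 1456051_at.

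The change with genotype was compared between the ages in the same fit. For *Drd4* the P1 signals were too dim to show an effect, so the comparison repeats the P12 change and does not show that the effect differed with age. The *Otx2* CKO effect at P12 minus that at P1 was -4.58 (SE 0.4218, limma adjusted p = 0.0001186) and -3.64 (SE 0.5269, limma adjusted p = 0.001698) for *Drd4*. Of 8 probe sets tested, these were called lower and *Th* higher, where 1.79% of all were called lower and 3.08% higher. *Th* gave 1.16 (SE 0.2976, limma adjusted p = 0.04438), but 0.65 after quantile normalization (adjusted p = 0.4086), and its call was lost when any of 9 arrays was left out. *Drd2* gave -0.96 (adjusted p = 0.1572), and -1.42 after quantile normalization (adjusted p = 0.04097).

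From P1 to P12, *Drd4*, *Drd2*, *Drd1* and *Slc18a3* rose in the control retina. The ages were compared after quantile normalization, since the P12 arrays were brighter. In control retina 7 probe sets were tested, of which 6 were called higher and 1 lower. Of all tested, 19.5% were called higher and 19.6% lower. Of the 6 called higher, only *Drd1* 1456051_at reached the limit of 50 at both ages, in quantile-normalized signal. The P1 control means of the others were 0.99 and 13.33 for *Drd4*, 10.03 for *Drd2*, 40.12 for *Drd1* 1455629_at and 21.35 for *Slc18a3*. They were tested because their P12 means reached the limit. *Slc18a2* was tested through its P1 mean alone (97.33, against 34.66 at P12). *Drd4* rose by 6.41 on the log2 scale for 1422830_s_at (SE 0.3383, limma adjusted p = 5.908e-08) and by 3.75 for 1422829_at (SE 0.2853, limma adjusted p = 9.325e-07). Its P1 signals lay under the array medians, so these sizes depend on the offset and scaling, and ran from 4.86 to 9.53 and from 2.74 to 4.83 over the alternatives. *Drd2* rose by 2.42 (SE 0.2492, limma adjusted p = 1.173e-05), the *Drd1* probe sets by 1.23 and 1.59, and *Slc18a3* by 1.05 (SE 0.2407, limma adjusted p = 0.004247). *Slc18a2* was called lower, at -1.19 (SE 0.3093, limma adjusted p = 0.009123), but as deposited it was 0.16 (adjusted p = 0.7124), so its direction rests on the scaling. *Th* changed by 0.06, below the limit.

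In the *Otx2* CKO retina 5 probe sets were tested between the ages, of which 4 were called higher and 1 lower. Of all tested, 14.3% were called higher and 13.3% lower. Only *Drd1* 1456051_at of the 4 reached the limit at both ages. *Drd1* 1455629_at, *Drd2* and *Slc18a3* had P1 means of 44.38, 17.93 and 17.35, and were tested because their P12 means reached it. *Slc18a2* was tested through its P1 mean alone (123.1, against 31.39 at P12). The *Drd1* probe sets rose by 1.57 and 1.65 and *Slc18a3* by 1.18 (SE 0.2426, limma adjusted p = 0.003321). *Drd2* rose by 0.99 (SE 0.2508, limma adjusted p = 0.01107). *Slc18a2* was called lower at -1.52 (SE 0.3095, limma adjusted p = 0.003233) and was 0.33 as deposited (adjusted p = 0.4223). Under the limit, *Drd4* gave 1.51 for 1422830_s_at and 0.18 for 1422829_at, and *Th* gave 0.71.

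The genes whose level ran most like each of 3 members over the 12 arrays were taken by Pearson r after quantile normalization, among 16522 probe sets. For *Drd4* they were *Cds1* (0.9929), *Dgke* (0.991), *Alpl* (0.989), *Slc4a5* (0.9882) and *Reep6* (0.9879). For *Th* they were *Mgat4b* (0.9609), *Ttyh3* (0.9431), *B4galt6* (0.9387), *Txnrd3* (0.935) and *Cnih2* (0.9233). For *Chat* they were *Hpgd* (0.9369), *Crebbp* (0.929), *Prkce* (0.9181), *Camk2g* (0.911) and *Mapk9* (0.9058). The arrays fall into 4 groups and share age and brightness, so these values describe group patterns.

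Other genes of the pathways were read from lists, 1 probe set per gene, at P12. In the list of dopamine synthesis, cofactor, uptake and breakdown, 10 of 12 genes had a probe set and 7 were tested. *Nr4a2*, a transcription factor of dopaminergic neurons, was called higher and none lower, which is near the 14.1% of all tested probe sets that were called higher, and the list median was 0.55 against 0.39 for all. *Nr4a2* went from 77 ± 23.4 to 171.8 ± 26.55 (SD, n = 3), a change of 1.04 (limma adjusted p = 0.009985), and 0.69 after quantile normalization (adjusted p = 0.07349). The cofactor enzyme gene *Gch1*, the dopamine transporter gene *Slc6a3* and the oxidase gene *Maob* stayed below the limit. In the list of acetylcholine breakdown and choline supply, 6 of 9 genes were tested, 0 were called in either direction and the median was 0.18. *Ache*, which breaks acetylcholine down, was 189.8 ± 101.5 and 270.6 ± 24.94 (SD, n = 3).

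In the nicotinic receptor list 10 of 15 genes were tested and 2 were called higher and 0 lower, where 14.1% of all were called higher, with a median of 0.31. *Chrna3*, a nicotinic receptor subunit gene, went from 85.13 ± 41.12 to 450.9 ± 104.9 (SD, n = 3), a change of 2.26 (limma adjusted p = 0.0001943) and 1.89 after quantile normalization. *Chrnb4*, a subunit that pairs with it, went from 36.07 ± 7.16 to 147.1 ± 51.94 (SD, n = 3), a change of 1.61 (limma adjusted p = 0.0006179) and 1.21 after quantile normalization. The control mean of *Chrnb4* was under the signal limit, and it was tested because its *Otx2* CKO mean reached the limit. *Chrnb2*, the other common partner, changed by 0.72 (adjusted p = 0.05604). Of the muscarinic receptors 1 of 5 was tested and was not called. Of the dopamine receptors beyond the 9 genes, *Drd3* stayed below the limit.

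In the list of cyclic AMP and clock genes linked with *Drd4* in photoreceptors, 18 of 24 were tested, 3 were called higher and 0 lower, near the 14.1% of all called higher, with a median of 0.48. The 3 were *Pde10a*, a phosphodiesterase gene (1.49, adjusted p = 0.01428), and the inhibitory G protein genes *Gnai1* (1.04, adjusted p = 0.01203) and *Gnai2* (0.90, adjusted p = 0.02671). *Adcy1*, the calcium-stimulated adenylyl cyclase gene, was 1134 ± 164.9 in control and 955.8 ± 472.1 in *Otx2* CKO (SD, n = 3; adjusted p = 0.4449). No gene of this list was called in the direction of *Drd4*. Of the other amine genes that use *Ddc* or *Slc18a2*, 1 of 8 was tested and was not called. At P1 none of these pathway lists had a called gene. Of the photoreceptor marker genes, 5 of 6 tested at P1 were called lower, against 0.179% of all probe sets tested. All 5 were tested because their control means reached the limit, and their *Otx2* CKO means were 6.37 to 18.63.

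**Figure D4:**
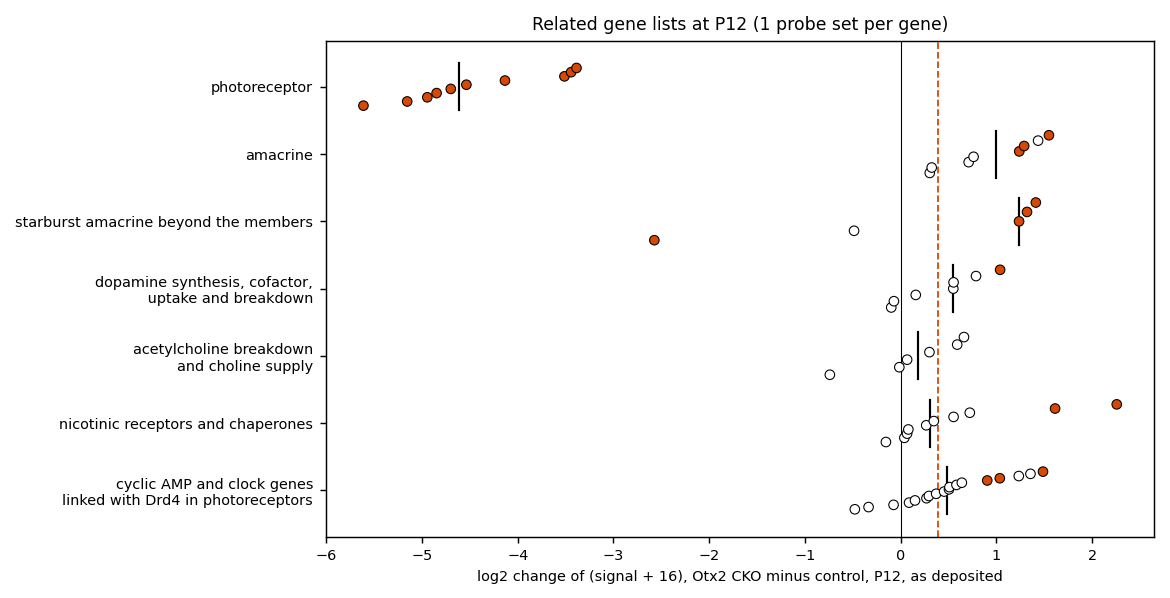
Log2 change of signal plus 16 at P12, *Otx2* CKO minus control, as deposited, for the tested genes of 7 lists, 1 point per gene; filled points passed the test, short vertical lines are list medians and the dashed line is the median of all tested probe sets, 0.39. Photoreceptor genes lie near the *Drd4* change, with a median of -4.62, and the dopamine, acetylcholine and cyclic AMP lists lie around the dashed line.

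Cell type markers were counted at P12, where 4.54% of all tested probe sets were called lower and 14.1% higher. All 10 photoreceptor genes tested were called lower, with a summed signal of 37130 to 52040 in control and 1254 to 2943 in *Otx2* CKO, and 6 of 7 bipolar genes were called lower (5902 to 8288 and 628.6 to 1261). The bipolar list holds *Otx2* itself, the targeted gene, so its call and its part of the sum were set by the design. Of 8 amacrine genes, 3 were called higher and 0 lower, with sums of 6107 to 9159 in control and 10960 to 15380 in *Otx2* CKO, and they were *Pax6*, *Slc32a1* and *Slc6a9*. Of 5 starburst genes beyond the members, 3 were called higher and *Isl1* lower. Bipolar cells also express *Isl1*, and it is counted in the bipolar list too. The starburst sums over 7 probe sets, *Isl1* among them, were 2412 to 3167 in control and 1664 to 2808 in *Otx2* CKO. After quantile normalization these sums were 1504 to 2327 and 1081 to 1200. All 6 microglia genes were called higher (495 to 881.8 and 2489 to 3224), as were 4 of 7 Müller glia, 1 of 7 ganglion cell and 3 of 6 pigment epithelium genes, and of 4 horizontal cell genes 2 were lower and 1 higher. The vessel gene *Kdr* was called higher, 1 of 3 red blood cell and vessel genes tested. The ganglion cell count was near the share of all called higher. Of the genes called higher, *Aif1* and *P2ry12* of microglia had control means of 16.9 and 35.77, under the signal limit. So did *Tyr* and *Tyrp1* of pigment epithelium (33.5 and 45.9) and the horizontal cell gene *Onecut2* (23.73). They were tested because their *Otx2* CKO means reached the limit. The other marker genes called higher reached it in both genotypes. Of the genes called lower, *Arr3*, *Vsx1*, *Cabp5*, *Bhlhe23* and *Lhx1* had *Otx2* CKO means of 19.97, 11.97, 19.83, 2.77 and 8.13. These were tested because their control means reached the limit. The other marker genes called lower reached it in both genotypes. Without P12 *Otx2* CKO replicate 1, the counts were 10 photoreceptor and 7 bipolar genes lower and 3 amacrine, 2 starburst, 3 Müller glia, 5 microglia and 4 pigment epithelium genes higher, with 0 ganglion cell genes higher, 2 horizontal cell genes lower and 0 higher, and 1 vessel gene higher. After quantile normalization of all 12 arrays, 7.09% of all were called lower and 6.79% higher. The counts were then 10 photoreceptor and 7 bipolar genes lower, and 3 amacrine, 3 Müller glia and 6 microglia genes higher. Starburst and pigment epithelium genes were 2 higher each, with *Isl1* lower, and ganglion cell genes 0. Horizontal cell genes were 2 lower and 1 higher, and vessel genes 1 higher. The part of these markers in the *Drd4*, *Th* and *Drd2* values was not tested.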

How the data were processed

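The deposited values are Affymetrix signal intensity on a linear scale, 1 per probe set and array, which the authors made with GeneChip Operating Software 1.4 (per the labels) from total retinal RNA. The scaling target is not given in the sources used here. Of 541212 values, 826 were 0. Groups came from titles, source names and the genotype field, because the free-text descriptions of 8 samples name the other genotype. No detection call was used. Each group had 3 arrays, and the 4 groups were fitted together with 1 spread per probe set. The errors of a P12 comparison therefore rest on the P1 arrays too.

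Log2(intensity + 16) was fitted with limma 3.58.1 (lmFit, eBayes with trend, R 4.3.3) for 12 arrays in 4 groups. Probe sets with a mean of 50 in 1 compared group were tested, and adjusted p under 0.05 was called. Genotype tests used deposited signals and age tests used quantile-normalized signals. The fit was tested on simulated data. Ratios of *Drd4* to other genes had exact permutation tests. Probe sets with several symbols (932) or none (9211) were not named.

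Replicates carry numbers in the titles. Deviations from the group mean of same-numbered arrays correlated at 0.189, 0.147 and 0.234 at P1 and 0.856, 0.909 and 0.579 at P12 over 15871 probe sets. The main tests did not use the numbers. A block on the number, shared over both ages unless stated, was fitted as an alternative and is given where it changed a call.

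The genes and lists were chosen with earlier results of these data known. Named were all probe sets of the 9 genes, *Otx2*, the up to 4 most changed called genes of a pathway list at P12 whose genotypes did not overlap, and the 5 genes most like *Drd4*, *Th* and *Chat*. Other genes (*Gch1*, *Slc6a3*, *Maob*, *Ache*, *Chrnb2*, *Adcy1*, *Drd3*, *Kdr* and the markers) were named after their values were seen. Alternatives were other scalings, offsets, filters, blocks, each age or genotype alone, no trend, and leaving out each array.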

Additional observations from a re-analysis of the deposited data

Results flagged for a closer look

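For *Drd4*, the *Otx2* CKO effect at P12 minus that at P1 was -3.64 (SE 0.5269, limma adjusted p = 0.001698) for 1422829_at and -4.58 (SE 0.4218, limma adjusted p = 0.0001186) for 1422830_s_at on the log2 scale. Both were singled out because the interaction term of genotype and age passed the threshold, but the P1 signals were at or under 7.1, too dim to show an effect, so these values repeat the P12 change and do not show that the effect differed with age. *Th* passed the same term at 1.16 (SE 0.2976, limma adjusted p = 0.04438), with P1 signals at or under 6.9, and this call was lost after quantile normalization (0.65, adjusted p = 0.4086).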

How the results depend on the processing

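*Drd4* was called lower at P12 under every alternative run, with adjusted p up to 0.001006 and 0.0001489 for its probe sets. The count of the 9 genes' probe sets called higher at P12, 1 in the report, was 2 with an offset of 50, a floor of 20 and the replicate block (shared over ages or within each age, the latter chosen after seeing the data), 0 with a signal limit of 100, the limit on the mean of 12 arrays and each age fitted alone, and 0 to 2 when 1 array was left out. It was 0 without P12 *Otx2* CKO replicate 1 and 2 without P1 *Otx2* CKO replicate 2 or P12 control replicate 2. The block added *Drd1* 1455629_at (adjusted p = 0.04396) and *Drd2* (adjusted p = 0.03053) at P12 as deposited, and with quantile normalization *Drd2* (adjusted p = 0.004731). With the block within each age the deposited fit gave all probe sets 1 spread, so its p-values are too small. For the difference between ages the count higher, 1 in the report, was 0 with quantile (12 arrays, or within an age), median, trimmed mean and spike scaling, an offset of 1, no filter, a limit of 100, the limit on the mean of 12 arrays and the quantile fits with the block. With 1 array left out it was 0 to 1, and it was 1 only without P12 control replicate 2 or P12 *Otx2* CKO replicate 2 or 3. The block within each age called the *Drd2* difference (adjusted p = 0.01078). In the age comparisons the count lower, 1 in the report, was 0 as deposited with and without the block in both genotypes, and in control also 0 with spike scaling and a limit of 100. In *Otx2* CKO the count higher, 4 in the report, was 2 with a limit of 100. *Slc18a2* turned to 0.16 in control and 0.33 in *Otx2* CKO as deposited, with and without the block. The block changed no other call of the 9 genes in the report's own scaling. The cause was not tested. Signals under 50 limit *Ddc*, *Chat*, *Slc5a7* and all 9 genes at P1.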
